A study of Homo sapiens with 4 samples.

Results

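Fatty acid synthesis and desaturation were followed here through 10 enzyme genes, ACLY, ACSS2, ACACA, FASN, SCD, FADS1, FADS2, ELOVL5, ELOVL6 and ACSL3, chosen by name and taken from a count table of 43714 genes. The cells are MDA-MB-231, an established line from a human breast cancer of the triple-negative type. They carry the 7TGP plasmid, a reporter of canonical Wnt signalling in which EGFP is under the control of 7 TCF binding sites. Repeated expansion and sorting, 8 rounds in all, gave a reporter-positive line (Wnt-positive in the labels, over 80% of cells with EGFP) and a reporter-negative line (Wnt-negative in the labels, their control, over 95% of cells without EGFP). Both lines carry the plasmid, had been selected with puromycin at 3 ug/mL and were grown in DMEM with 10% serum. RNA sequencing gave 2 libraries per line. Each reporter state is represented by 1 sorted line, so reporter activity and whatever else sets these lines apart cannot be told apart. Whether the libraries of a line are from separate cultures is not in the labels, and p-values then cover no more than the spread among the libraries at hand, possibly a technical one.

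Cells make new fatty acids in the cytosol from acetyl-CoA, which comes from citrate or from acetate. Acetyl-CoA is carboxylated and built into palmitate, and palmitate is then lengthened, given double bonds and activated to acyl-CoA for use in membrane and storage lipids. Many of these genes are induced by SREBP-1, the transcription factor encoded by SREBF1, and tumour cells often run the pathway at a high rate.

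In the reporter-positive line, 2 of the 10 genes fell, none rose and 8 did not pass the test (edgeR's quasi-likelihood test on all 30952 genes kept, Benjamini-Hochberg adjusted p under 0.05). Those that fell were ACSS2, which makes acetyl-CoA from acetate, to 72.2% of its reporter-negative level, and ELOVL5, which elongates polyunsaturated fatty acids, to 74.3%. Of all genes tested, 22.4% were called, 11.6% as higher and 10.9% as lower, so the share of 20% among the enzymes was near the background. Among 5467 genes with a mean of at least 40 CPM (counts scaled to library size, here adjusted by TMM), a range that holds all 10, 36.0% were called. At an unadjusted p under 0.05, 1 of the 10 was higher and 2 were lower, and DESeq2 and limma-voom, like edgeR, called 0 higher and 2 lower. The fold changes were small: log2 values ran from -0.47 to 0.17, with a median of -0.09, against a median of -0.0046 over all genes tested. The libraries of the lines did not overlap for 6 of the 10, higher in the reporter-positive line for FADS1 and ELOVL6 and lower for ACLY, SCD, ELOVL5 and ACSS2; over all genes that share was 57.7%. The summed level of the 10 genes was 3136 and 3376 CPM in the reporter-positive libraries, against 3478 and 3477 CPM in the reporter-negative libraries.

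**Figure D1:**
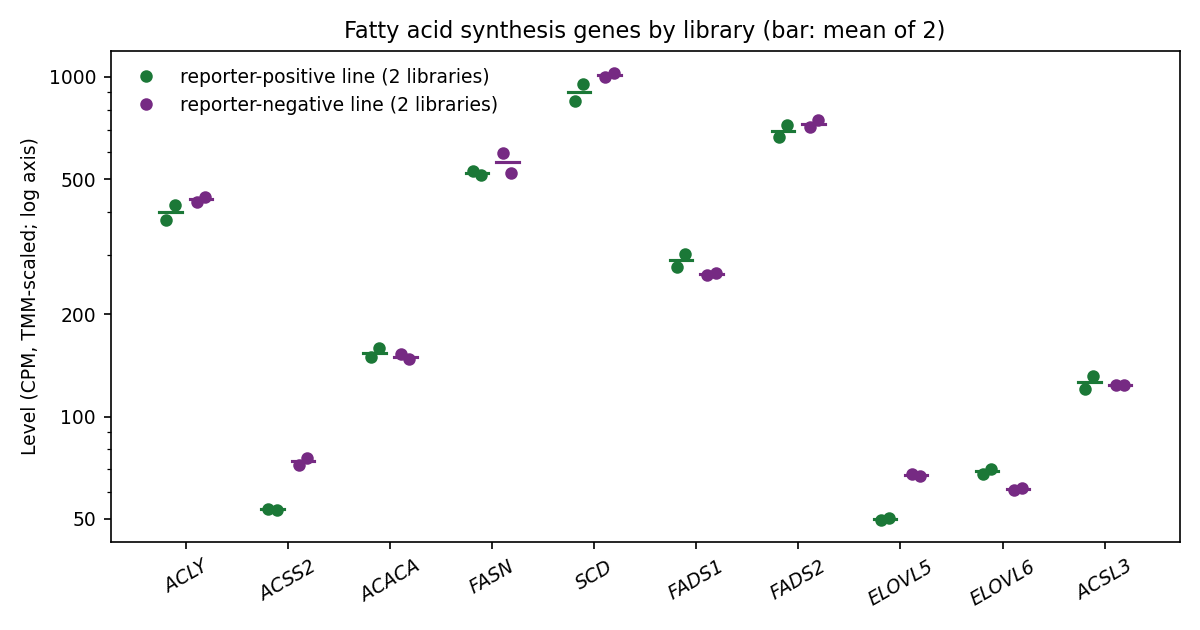
Level of each of the 10 genes in CPM on a log axis, with 1 point per library and a line at the mean of 2 libraries, the reporter-positive line to the left of the reporter-negative line. ACSS2 and ELOVL5 lie clearly lower in the reporter-positive line, while the other genes differ little.

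The calls of ACSS2 and ELOVL5 held under each of the 11 other ways of fitting, while the count of enzymes called did not. With scaling to total counts, ACLY and SCD were also called lower, which made 4 lower and 0 higher. Over all genes, 4032 were then lower, against 3366 as reported. A fit without 1 of the reporter-positive libraries takes its spread from the 2 reporter-negative libraries alone. Without the reporter-positive library numbered 2, the log2 fold changes of ACLY and SCD were -0.21 and -0.27. Without the one numbered 1, those of ELOVL6 and FADS1 were 0.20 and 0.20. For ACLY, SCD and FADS1, and by less for ELOVL6, the 2 reporter-positive libraries lay further apart than the reporter-negative libraries.

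**Figure D2:**
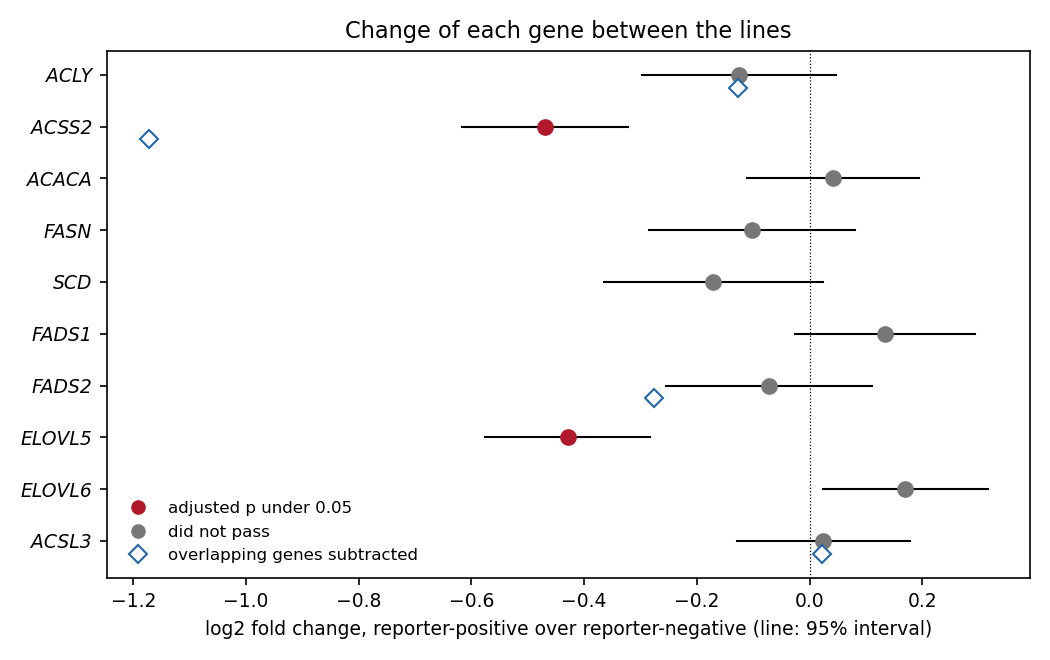
log2 fold change of each gene, reporter-positive over reporter-negative line, with its 95% interval, and, as diamonds for 4 genes, the value after the counts of overlapping genes were taken away. The intervals of ACSS2 and ELOVL5 lie below 0, and the diamonds of ACSS2 and FADS2 lie to the left of their circles.

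The library totals ran from 55894092 to 62539034 counts in the reporter-positive line and from 58429705 to 63034563 in the reporter-negative line. Over all genes, 3576 rose and 3366 fell, so that 51.5% of the calls were higher, against 36.0% with scaling to total counts. Without the reporter-negative library numbered 1 there were 2333 higher and 2025 lower calls. AXIN2, a feedback target of canonical Wnt signalling, averaged 18.5 CPM in the reporter-positive line and 11.4 CPM in the reporter-negative line (log2 fold change 0.70), in the direction of the reporter label. AXIN2 overlaps ENSG00000266076, which had 62.1% as many counts and rose as well (log2 fold change 0.64), so its count may hold reads of that gene. VIM, a mesenchymal marker, was at 1299.7 CPM in the reporter-positive and 2670 CPM in the reporter-negative line, and CDH1, an epithelial one, at no more than 0.859 CPM in any library. EPCAM, another epithelial marker, averaged 4.58 CPM in the reporter-positive and 4.66 CPM in the reporter-negative line. VIM overlaps VIM-AS1 and ENSG00000234961, which had 36.9% and 36.3% as many counts and fell as well. ERBB2 averaged 64.1 CPM in the reporter-positive and 81.1 CPM in the reporter-negative line, and PGR was at no more than 0.619 CPM. ESR1 averaged 5.78 CPM in the reporter-positive and 4.97 CPM in the reporter-negative line. It overlaps the more highly counted SYNE1, so its count may hold reads of that gene and its own level may be lower. Of 5 adipocyte markers, 2 had enough counts to test and none was called; the tested ones summed to 3.68 and 2.81 CPM in reporter-positive and 4.30 and 4.48 CPM in reporter-negative libraries, and ADIPOQ had at most 8 counts. The tested adipocyte markers, PLIN1 and PLIN4, overlap the more highly counted PEX11A and HDGFL2, so their counts may hold reads of those genes, and the same holds for COL1A2 and PDGFRA among the fibroblast markers, which overlap more highly counted genes. Leukocyte markers summed to 6.75 and 6.58 CPM in reporter-positive and 4.57 and 5.39 CPM in reporter-negative libraries, with CD3E at 7 counts or fewer. Fibroblast markers summed to 9.55 and 7.48 CPM in reporter-positive and 7.24 and 6.28 CPM in reporter-negative libraries, and 1 of 5, LUM, rose. Both endothelial markers were tested and none was called; PECAM1 made up most of their sums of 76.3 and 59.2 CPM in reporter-positive and 89.1 and 73.3 CPM in reporter-negative libraries.

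Promoter windows from 250 bases before to 50 bases after a start site, taken from RefSeq on GRCh38.p14, were found for 9 of the 10 genes, 14 windows in all. FASN had no window, so its promoter was not searched. They were searched on both strands for the sterol regulatory element TCACNCCAC, the NF-Y box CCAAT, the E-box CACGTG and the TCF/LEF core CTTTGAA or CTTTGAT. No window held the sterol regulatory element, which 1.13% of all 35116 windows hold, and a longer or variant site would not be seen by these letters. The NF-Y box was in 9 of the 14 windows, of 7 genes, against 34.6% of all windows. The windows of ACLY overlap and hold the same boxes, so the windows are not independent. The E-box was in 1 (7.26% of all), that of ELOVL5, and the TCF/LEF core in 1 (6.86% of all), that of ELOVL6. A match is a description of the letters only.

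The windows of the 2 genes that fell, and for comparison those of ELOVL6 and SCD, are printed 5′ to 3′ on the gene's strand with these motifs in capitals, which do not overlap each other; a match on the other strand shows the motif's reverse complement.
ACSS2 (chr20:34874739-34875038, forward strand): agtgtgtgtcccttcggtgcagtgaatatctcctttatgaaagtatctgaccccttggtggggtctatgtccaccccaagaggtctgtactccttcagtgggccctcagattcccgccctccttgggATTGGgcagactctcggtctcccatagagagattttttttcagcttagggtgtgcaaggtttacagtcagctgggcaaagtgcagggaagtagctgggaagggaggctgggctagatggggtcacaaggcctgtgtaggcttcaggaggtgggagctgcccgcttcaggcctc
ELOVL5 (chr6:53348901-53349200, reverse strand): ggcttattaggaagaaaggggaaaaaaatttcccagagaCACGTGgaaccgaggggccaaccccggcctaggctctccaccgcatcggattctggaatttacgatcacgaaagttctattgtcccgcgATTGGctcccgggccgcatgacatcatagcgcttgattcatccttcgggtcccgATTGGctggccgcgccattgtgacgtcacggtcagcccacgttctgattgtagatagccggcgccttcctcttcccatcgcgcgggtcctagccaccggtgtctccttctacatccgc
ELOVL6 (chr4:110198566-110198865, reverse strand): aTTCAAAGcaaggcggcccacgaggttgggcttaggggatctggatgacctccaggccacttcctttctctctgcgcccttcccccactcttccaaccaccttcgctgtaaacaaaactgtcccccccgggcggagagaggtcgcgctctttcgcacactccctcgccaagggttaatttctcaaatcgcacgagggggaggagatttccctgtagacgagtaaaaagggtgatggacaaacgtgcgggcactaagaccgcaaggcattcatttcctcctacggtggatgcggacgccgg
SCD (chr10:100346983-100347282, forward strand): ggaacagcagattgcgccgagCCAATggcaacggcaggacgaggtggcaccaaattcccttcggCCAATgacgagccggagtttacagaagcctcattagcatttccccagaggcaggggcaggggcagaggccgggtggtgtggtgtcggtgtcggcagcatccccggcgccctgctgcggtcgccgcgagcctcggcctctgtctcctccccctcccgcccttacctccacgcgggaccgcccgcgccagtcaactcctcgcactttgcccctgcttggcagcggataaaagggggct
ACSS2 has a further RefSeq start, whose window holds none of the motifs, and the window shown has an NF-Y box starting 123 bases before the start site. ELOVL5 has NF-Y boxes at 122 and 68 bases and the E-box at 211 bases before its start. SCD has NF-Y boxes at 229 and 186 bases, and ELOVL6 has the TCF/LEF core at 249 bases before the start, at the edge of the window. NF-Y boxes thus stood both in the genes that fell and in SCD, which did not pass.

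Acetyl-CoA is supplied from acetate by ACSS2, which fell, and from citrate by ACLY, which did not pass. ACSS2 (ENSG00000131069, chromosome 20, 34872146 to 34927962, forward strand) encodes the acetyl-CoA synthetase of cytosol and nucleus. It had 3363 and 2779 counts in the reporter-positive libraries, 53.5 and 53.0 CPM, against 4572 and 4645 counts in the reporter-negative libraries, 72.0 and 75.6 CPM. The lines did not overlap, and the libraries of a line differed by at most 5.03%. Its log2 fold change was -0.47 (standard error 0.07), with a 95% interval of -0.62 to -0.32 (edgeR, Benjamini-Hochberg adjusted p = 4.12e-05). In bulk RNA, fewer cells expressing a gene and less RNA per cell cannot be told apart.

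Part of the ACSS2 count may be shared with a neighbour. The counts of nested genes were taken to mean that reads went to every gene whose span they meet, whichever the strand and in introns. That assignment was not tested. GGT7, on the opposite strand, overlaps the first 715 bases of the ACSS2 span and had 2161 and 1372 counts in the reporter-positive libraries, against 1429 and 1334 in the reporter-negative libraries. GGT7 itself rose (log2 fold change 0.46; edgeR, adjusted p = 0.00738). With all GGT7 counts taken away, the most that the genes could share, ACSS2 was left with 23.0 ± 5.46 CPM in the reporter-positive line and 51.7 ± 3.12 CPM in the reporter-negative line (SD, n = 2). The log2 fold change was then -1.17 (edgeR, adjusted p = 5.15e-04). How many GGT7 reads fell within ACSS2 in each library is not known from the counts.

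ACLY (ENSG00000131473, chromosome 17, 41866908 to 41930542, reverse strand) encodes ATP citrate lyase, which splits citrate exported from mitochondria. It stood at 379 and 420.25 CPM in the reporter-positive libraries and 428 and 443 CPM in the reporter-negative libraries. All reporter-positive values were below the reporter-negative ones, but the reporter-positive libraries differed by 10.956%, more than the gap between the lines. The log2 fold change was -0.12 with a 95% interval of -0.30 to 0.05 (edgeR, adjusted p = 0.329). An antisense gene within it, ENSG00000274630, had 6.25% as many counts. Within a library, where scaling plays no part, the ratio of ACSS2 to ACLY counts was 0.141 and 0.126 in the reporter-positive libraries, against 0.168 and 0.171 in the reporter-negative libraries. SLC25A1, the mitochondrial citrate carrier that feeds ACLY, fell to 84.8% of its reporter-negative level, at 49.3 ± 0.854 CPM in the reporter-positive and 58.2 ± 1.04 CPM in the reporter-negative line (SD, n = 2; edgeR, adjusted p = 0.0179). Leaving out the reporter-negative library numbered 1 (edgeR, adjusted p = 0.172) or numbered 2 (edgeR, adjusted p = 0.241) ended that call.

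The enzymes that build palmitate did not pass. ACACA (ENSG00000278540, chromosome 17, 37084988 to 37406818, reverse strand) encodes acetyl-CoA carboxylase 1, which commits acetyl-CoA to fatty acid synthesis. It was at 150 and 159 CPM in the reporter-positive libraries and 152 and 147 CPM in the reporter-negative libraries, with overlap between the lines. Its log2 fold change was 0.04 with a 95% interval of -0.11 to 0.19 (edgeR, adjusted p = 0.765), a range of -7.40% to 14.4% in percent change. FASN (ENSG00000169710, chromosome 17, 82078333 to 82098332, reverse strand) encodes fatty acid synthase, which assembles palmitate, and no listed gene overlaps it. FASN was at 529 and 515 CPM in the reporter-positive libraries and 597 and 523 CPM in the reporter-negative libraries, so the lines overlapped. Its log2 fold change was -0.10 with a 95% interval of -0.28 to 0.08 (edgeR, adjusted p = 0.478), a range of -17.9% to 5.76% in percent change. The reporter-negative libraries of FASN differed by 14.2%, more than the lines did. The ratio of FASN to ACACA was 3.53 and 3.24 in reporter-positive and 3.92 and 3.55 in reporter-negative libraries, where the lowest of the 4 values lay in the reporter-positive line and the highest in the reporter-negative line.

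Of the desaturases, SCD (ENSG00000099194, chromosome 10, 100347124 to 100364834, forward strand) encodes stearoyl-CoA desaturase, which places a double bond in saturated fatty acids, and no listed gene overlaps it. It had 53169 and 50047 counts, 847 and 955 CPM, in the reporter-positive libraries, against 63643 and 63031 counts, 1002 and 1026 CPM, in the reporter-negative libraries. Both reporter-positive values lay below the reporter-negative ones, yet the reporter-positive libraries differed by 12.8%. The log2 fold change was -0.17 with a 95% interval of -0.37 to 0.02 (edgeR, adjusted p = 0.220), and -0.26 with scaling to total counts (edgeR, adjusted p = 0.0144). The ratio of SCD to FASN counts was 1.60 and 1.85 in reporter-positive and 1.68 and 1.96 in reporter-negative libraries, so the lines overlapped. SCD5, a second stearoyl-CoA desaturase gene, did not pass at a log2 fold change of -0.09 (edgeR, adjusted p = 0.460).

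FADS1 and FADS2, the fatty acid desaturase genes of the polyunsaturated pathway, lie on opposite strands of chromosome 11 and overlap. FADS1 (ENSG00000149485, 61799625 to 61829318, reverse strand) lies wholly within the annotated span of FADS2 (ENSG00000134824, 61792980 to 61867354, forward strand). The shared 29694 bases make up 39.9% of the FADS2 span and hold the RefSeq start sites of both genes, 61817003 for FADS1 and 61816203 and 61816404 for FADS2. Under the read assignment taken above, each count of FADS1 is also part of the FADS2 count. Reads of FADS2's first part are then also counted as FADS1.

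As deposited, FADS1 was at 275 and 301 CPM in the reporter-positive libraries and 261 and 264 CPM in the reporter-negative libraries. Its values were higher in the reporter-positive line in each library, without passing: the log2 fold change was 0.13 with a 95% interval of -0.03 to 0.29 (edgeR, adjusted p = 0.247). FADS2 was at 665 and 720.9 CPM in the reporter-positive libraries and 712 and 745 CPM in the reporter-negative libraries, and the lines overlapped. Its log2 fold change was -0.07 with a 95% interval of -0.25 to 0.11 (edgeR, adjusted p = 0.645).

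Outside FADS1, and with the counts of FEN1, a replication nuclease gene at the low-coordinate end of the span, also taken away, FADS2 kept 20620 and 18494 counts in the reporter-positive libraries, against 25370 and 26100 in the reporter-negative libraries. That remainder was 341 ± 17.4 CPM in the reporter-positive line and 412 ± 18.0 CPM in the reporter-negative line (SD, n = 2). It fell to 82.6% of its reporter-negative level, with a log2 fold change of -0.28 (standard error 0.08; edgeR, adjusted p = 0.0165). The call was lost without the reporter-negative library numbered 1 (edgeR, adjusted p = 0.198) or numbered 2 (edgeR, adjusted p = 0.377), at log2 fold changes of -0.31 and -0.23. FADS1 and FEN1 had positive log2 fold changes, 0.13 and 0.26, so taking their counts away lowers the value of FADS2. With overlaps subtracted, and FADS1 left out, 3 of 9 enzymes were called lower, ACSS2, ELOVL5 and FADS2, and 5 with scaling to total counts. Over all genes, 3367 were called lower with overlaps subtracted, against 3366 (10.9%) as deposited. With scaling to total counts, 4032 were lower as deposited. Within a library, the ratio of FADS1 to FADS2 counts was 0.414 and 0.418 in the reporter-positive libraries, against 0.367 and 0.355 in the reporter-negative libraries. Against the remainder of FADS2, the ratio was 0.839 and 0.854 in the reporter-positive libraries and 0.654 and 0.622 in the reporter-negative libraries. The remainder is FADS2 less FADS1 and FEN1, so, FEN1 aside, this ratio follows from the one before and is no separate observation. The lines did not overlap in the ratio of FADS1 to FADS2, and no scaling enters it. Of all single genes 57.7% did not overlap, and no such share was computed for ratios.

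Of the elongases, ELOVL5 fell and ELOVL6 did not pass. ELOVL5 (ENSG00000012660, chromosome 6, 53267398 to 53349179, reverse strand) had 3114 and 2637 counts, 49.6 and 50.3 CPM, in the reporter-positive libraries, against 4299 and 4106 counts, 67.7 and 66.8 CPM, in the reporter-negative libraries. Libraries of a line lay within 1.5045% of each other and the lines did not overlap. Its log2 fold change was -0.43 (standard error 0.07), with a 95% interval of -0.58 to -0.28 (edgeR, adjusted p = 9.78e-05). The listed gene within it, RPS16P5, had 0.198% as many counts. ELOVL6 (ENSG00000170522, chromosome 4, 110045846 to 110199199, reverse strand), which elongates palmitate to stearate, had 4253 and 3674 counts, 67.7 and 70.1 CPM, in the reporter-positive libraries and 3862 and 3790 counts, 60.8 and 61.7 CPM, in the reporter-negative libraries. The values were higher in each reporter-positive library, with a log2 fold change of 0.17 and a 95% interval of 0.02 to 0.32, and did not pass after adjustment (edgeR, unadjusted p = 0.0255, adjusted p = 0.0941). The count ratio of ELOVL6 to ELOVL5 was 1.37 and 1.39 in the reporter-positive libraries, against 0.898 and 0.923 in the reporter-negative libraries. The ratio was thus above 1 in each reporter-positive library and below 1 in each reporter-negative library; the genes differ in length, so it gives no order of their levels.

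ACSL3 (ENSG00000123983, chromosome 2, 222860934 to 222944639, forward strand) encodes a long-chain acyl-CoA synthetase of the endoplasmic reticulum and lipid droplets. It was at 121 and 131 CPM in the reporter-positive libraries and 124 CPM in each reporter-negative library, so the lines overlapped. The log2 fold change was 0.02 with a 95% interval of -0.13 to 0.18 (edgeR, adjusted p = 0.872). Its antisense gene ACSL3-AS1 had 11.6% as many counts. ACSL4, a synthetase that prefers arachidonate and is not among the 10, rose to 200.3 ± 14.3 CPM in the reporter-positive line, against 114 ± 2.59 CPM in the reporter-negative line (SD, n = 2; log2 fold change 0.81; edgeR, adjusted p = 9.00e-08). The ratio of ACSL4 to ACSL3 counts was 1.58 and 1.60 in the reporter-positive libraries, against 0.935 and 0.908 in the reporter-negative libraries.

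**Figure D3:**
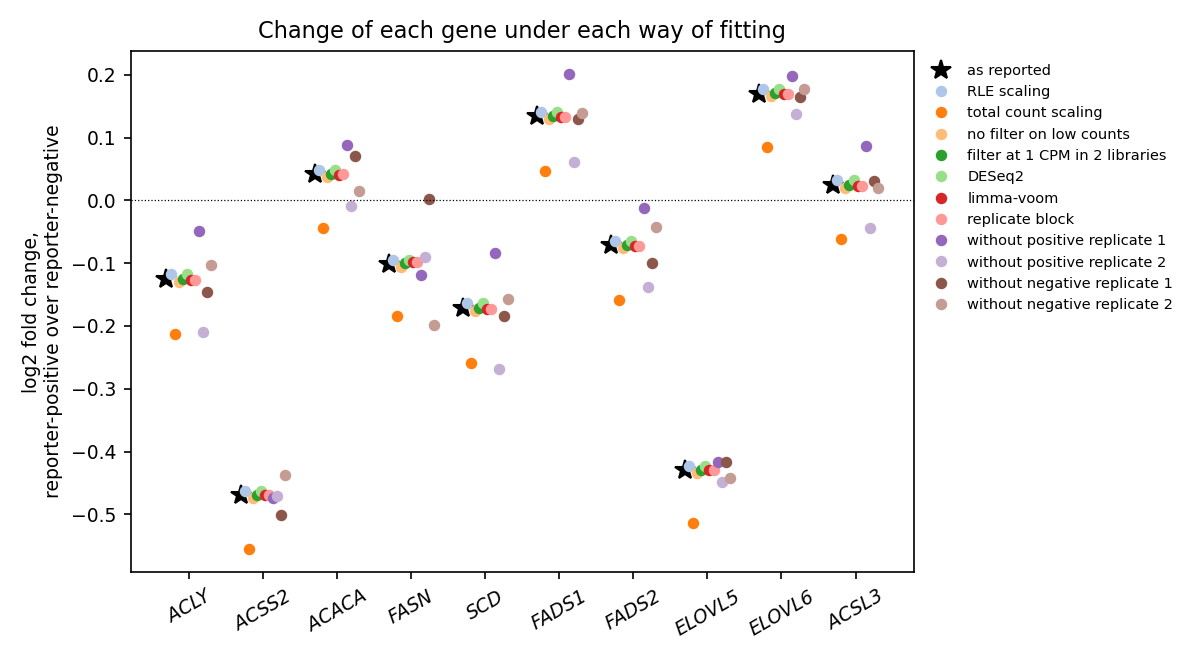
log2 fold change of each gene, reporter-positive over reporter-negative line, as reported (star) and under 11 other ways of fitting (points). ACSS2 and ELOVL5 stay below -0.4 throughout, total count scaling lowers each value, and ACACA, ACSL3 and FASN reach both sides of 0.

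The 10 genes lie on 7 chromosomes, and the genes around them did not behave alike. Genes within 1 Mb were counted, leaving out those that overlap the enzyme gene. Around ACSS2, 27 of 52 tested neighbours fell and 2 rose, with a median log2 fold change of -0.28, against 10.9% lower over all genes. Around ELOVL5, 9 of 28 fell and 1 rose, with a median of -0.23. Around FASN, 27 of 107 fell and 5 rose, with a median of -0.19, and around ACACA 1 of 41 fell and 0 rose, with a median of -0.17. Around ACLY the median was -0.07 and around SCD -0.04, and around ELOVL6, FADS1, FADS2 and ACSL3 it was 0.08, 0.07, 0.07 and 0.00. Both enzymes that fell thus had neighbourhoods with medians below those of the other 8, and both lay below their own neighbourhood's median; the part of the neighbourhood in their fall was not tested. Neighbours can share reads with each other, so they are not independent.

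**Figure D4:**
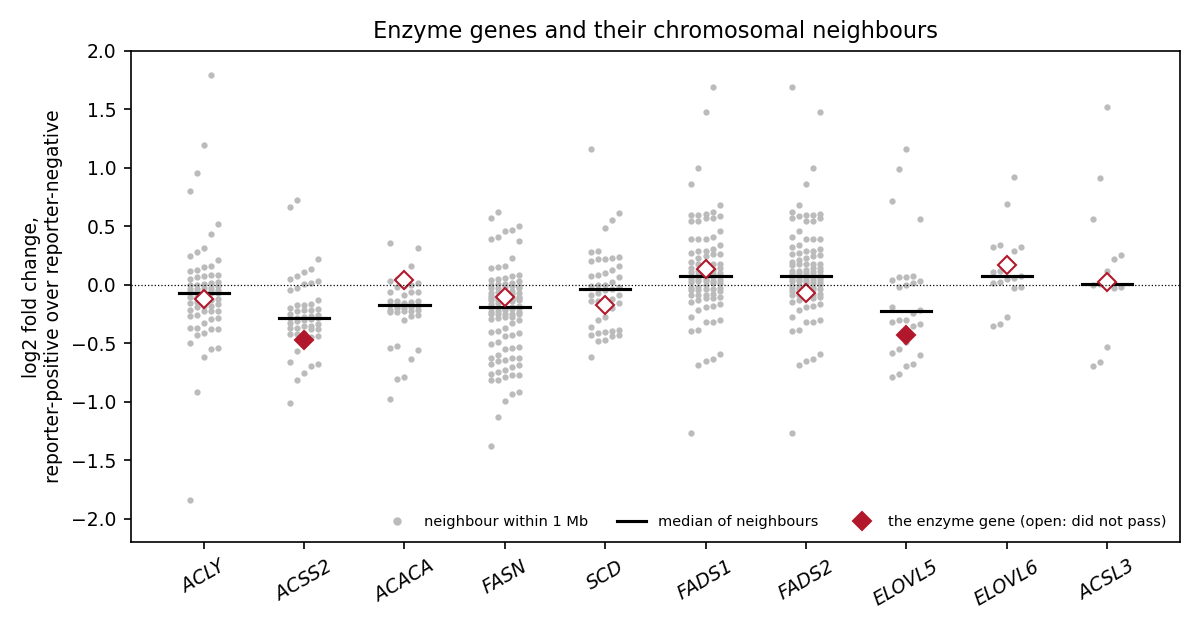
log2 fold change, reporter-positive over reporter-negative line, of each enzyme gene (diamond, filled where it passed), of the tested genes within 1 Mb of it (grey points) and their median (black line). The median around ACSS2 lies at -0.28 and around ELOVL5 at -0.23, with the diamonds of both below.

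Regulators of the pathway moved both ways. Of 20 listed, 4 rose, 4 fell and 12 did not pass, with a median log2 fold change of -0.02. Over all genes 22.4% were called, and 36.0% of those with at least 40 CPM, a level that not all regulators reach. SREBF1 rose to 169 ± 9.40 CPM in the reporter-positive line, against 115 ± 1.79 CPM in the reporter-negative line (SD, n = 2; log2 fold change 0.56; edgeR, adjusted p = 8.13e-06). RAI1, which overlaps it and had 64.4% as many counts, rose as well (log2 fold change 0.40). INSIG1, whose product holds SREBP precursors in the endoplasmic reticulum, rose 1.78-fold, to 190.3 ± 7.34 CPM in the reporter-positive line, against 107 ± 2.55 CPM in the reporter-negative line (SD, n = 2). MBTPS2, a protease that releases SREBPs, rose 1.29-fold, a call lost with total count scaling (edgeR, adjusted p = 0.0558) and without the reporter-negative library numbered 1 (edgeR, adjusted p = 0.113). SREBF2, the partner more tied to cholesterol synthesis, did not pass (log2 fold change -0.19; edgeR, adjusted p = 0.0566). The ratio of SREBF1 to SREBF2 counts was 1.18 and 1.11 in the reporter-positive libraries, against 0.685 and 0.671 in the reporter-negative libraries, and the ratio of SREBF1 to FASN counts was 0.332 and 0.315 in the reporter-positive libraries, against 0.194 and 0.217 in the reporter-negative libraries. SREBF1 thus rose while FASN, SCD and ACLY had log2 fold changes of -0.10, -0.17 and -0.12 that did not pass. RXRA, a nuclear receptor partner of LXR, fell to 61.2% of its reporter-negative level, and RXRB, which overlaps the more highly counted SLC39A7, which rose, to 75.2%. MLXIPL, which encodes the carbohydrate response factor ChREBP, fell to 40.1% at a low level, 0.923 ± 0.226 CPM in the reporter-positive and 2.32 ± 0.410 CPM in the reporter-negative line (SD, n = 2). Without the reporter-negative library numbered 1, 2 regulators rose and 3 fell.

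Over 8 lists of related genes, 124 members were tested, of which 15 rose, 21 fell and 88 did not pass. The 29.032% called compares with 22.4% of all genes and 36.0% of genes of at least 40 CPM. Of 15 other synthesis genes, 1 rose and 2 fell. CBR4, a subunit of mitochondrial fatty acid synthesis, rose 1.33-fold and overlaps PALLD, which rose too (log2 fold change 0.49), and ACACB, the mitochondrial acetyl-CoA carboxylase, fell to 67.3%, at 7.54 ± 0.0188 CPM in the reporter-positive and 11.2 ± 0.660 CPM in the reporter-negative line (SD, n = 2). Of 15 other elongation and desaturation genes, 2 rose and 2 fell. HSD17B12, the ketoacyl reductase that works with all ELOVL elongases, rose 1.43-fold, to 58.8 ± 2.16 CPM in the reporter-positive line, against 41.0 ± 1.49 CPM in the reporter-negative line (SD, n = 2). It holds ENSG00000246250, which had 93.9% as many counts and rose as well (log2 fold change 0.52). The dehydratase genes of the same cycle HACD1 and HACD3 fell to 73.0% and 77.2%. DEGS1, a ceramide desaturase, rose 1.16-fold, a call lost with total count scaling (edgeR, adjusted p = 0.214) and without either reporter-negative library.

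**Figure D5:**
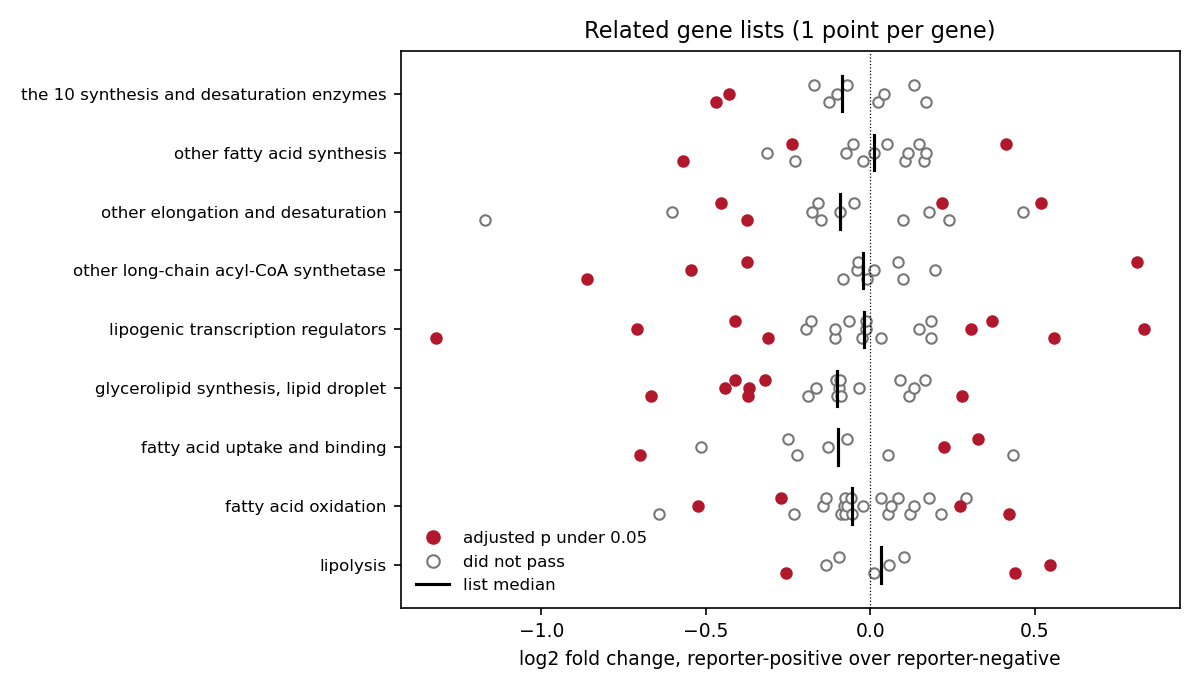
log2 fold change, reporter-positive over reporter-negative line, of each tested gene of the 10 enzymes and of 8 related lists, with genes past the test filled and the list median as a line. The medians lie between -0.10 and 0.03, and each related list has genes called on both sides of 0.

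Among 12 other acyl-CoA synthetase and fatty acid transport genes, ACSL4 rose and 3 of the transporter family fell, SLC27A1 to 77.2%, SLC27A4 to 68.5% and SLC27A3 to 55.1%. SLC27A3 overlaps the far more highly counted INTS3, which fell too. SLC27A1 overlaps PGLS-DT, which had 97.2% as many counts and fell as well (log2 fold change -0.31). Of 19 glycerolipid synthesis and lipid droplet genes, 1 rose and 6 fell. LPIN2 and LPIN3, phosphatidate phosphatases, fell to 73.6% and 63.0%, and AGPAT2, an acyltransferase of phosphatidate synthesis, to 75.2%. LPIN2 was at 108 ± 3.51 CPM in the reporter-positive and 147 ± 1.14 CPM in the reporter-negative line (SD, n = 2). GPAT2 rose 1.21-fold, a call lost with total count scaling (edgeR, adjusted p = 0.0801) and without either reporter-negative library. PLIN2, which coats lipid droplets, was among the 6 that fell (log2 fold change -0.37; edgeR, adjusted p = 8.14e-04).

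Of 10 uptake and binding genes, 2 rose and 1 fell. The fatty acid binding protein gene FABP5 fell to 61.6%, and ACBD3 and DBI, acyl-CoA binding proteins, rose by 0.33 and 0.22 on the log2 scale; both of these calls were lost without either reporter-negative library, which left 1 gene called. The DBI call was also lost with total count scaling (edgeR, adjusted p = 0.239), and with DESeq2 (adjusted p = 0.0638), and it did not pass when reporter-positive library 2 was left out (edgeR, adjusted p = 0.190). ACBD3 overlaps ACBD3-AS1, which had 30.9% as many counts and rose as well (log2 fold change 0.43). FABP4 and FABP7 were not analysed here. Of 25 fatty acid oxidation genes, 2 rose, 2 fell and 21 did not pass. CPT1A, the carnitine palmitoyltransferase that admits fatty acids to mitochondria, fell to 69.5%, at 41.7 ± 3.56 CPM in the reporter-positive and 59.9 ± 2.30 CPM in the reporter-negative line (SD, n = 2; edgeR, adjusted p = 2.90e-05). PPARA, a nuclear receptor that induces oxidation genes, rose 1.34-fold. HADH, a dehydrogenase of the cycle, rose 1.21-fold and ACADVL, another, fell to 82.9%, and both calls were lost without either reporter-negative library. The HADH call was also lost with total count scaling (edgeR, adjusted p = 0.104). The list's count was 10 without the reporter-positive library numbered 1 and 2 without the reporter-negative library numbered 1.

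Of 8 lipolysis genes, 2 rose and 1 fell. MGLL, monoacylglycerol lipase, rose 1.46-fold, to 54.7 ± 1.37 CPM in the reporter-positive line, against 37.4 ± 0.537 CPM in the reporter-negative line (SD, n = 2), but overlaps SEC61A1, which had 441% as many counts and rose as well (log2 fold change 0.52). ABHD5, the activator of the triglyceride lipase, rose 1.36-fold and overlaps ANO10, which had 241% as many counts and did not pass (edgeR, adjusted p = 0.0504). PNPLA2, that lipase, fell to 83.8%, a call lost without either reporter-negative library and without the reporter-positive library numbered 2 (edgeR, adjusted p = 0.0545). PNPLA2 overlaps ENSG00000255108, which had 73.4% as many counts and fell as well (log2 fold change -0.43). How many reads MGLL and ABHD5 share with these larger-count neighbours is not known from the counts.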

How the data were processed

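RNA was sequenced from 2 libraries each of the reporter-positive and reporter-negative line, from 1 ug of total RNA per library, all with the same batch label. The authors deposited raw counts per Ensembl gene ID, used as they stand. HISAT2, Bowtie2, DESeq2 and hg19 are named without roles, per the submitters' processing notes; the sources used here name no counting tool, annotation or strand setting. All 43714 gene IDs are in GENCODE release 29 on GRCh38, whose positions and overlaps are given, and 43289 have a current symbol.

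The main test was edgeR's robust quasi-likelihood F test (version 4.0.16, R 4.3.3) between lines. filterByExpr kept 30952 genes, with a minimum count of 10 and a minimum total of 15, libraries were scaled by TMM, and p-values were adjusted over all genes kept by the Benjamini-Hochberg method, with calls at 0.05. All 10 enzyme genes passed the filter. CPM values were scaled by TMM, and errors are SDs over 2 libraries. Total counts ran from 55894092 to 63034563, and intervals of 95% come from the same fit. Counting error of single genes was not set apart from the spread between libraries. Tested on simulated data, the fit made false calls at more than the nominal share.

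The members, lists and settings were chosen with earlier results of these data known. Named genes are all members, the line check genes, the most counted gene overlapping a member and, per list, up to 3 passing genes in each direction with the smallest adjusted p. SREBF2, SCD5, PLIN1, PLIN2, PLIN4, COL1A2, PDGFRA, EPCAM, ADIPOQ and CD3E were added after their values were seen. So were genes that overlap named list genes or line check genes, or have few counts in a member. Other settings were DESeq2 1.42.0 and limma-voom (limma 3.58.1) as tests, scaling by RLE or by total counts, keeping every gene with a count or only those at 1 CPM in 2 libraries, a block for the library number, and leaving out each library. Counts of overlapping genes were also subtracted from those of each member except FADS1; repeating the alternatives on those counts, the neighbour counts and the within-library ratios were added later. No library was a copy of another: chi-square per degree of freedom between the libraries of a line was 19.3 (reporter-positive) and 37.0 (reporter-negative). Tables and promoter searches used Python 3.11.15.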

Additional observations from a re-analysis of the deposited data

How the results depend on the processing

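Among the 10 enzymes, 105 of 117 alternative values kept direction and side of the threshold, 7 passed where the reported value did not and 5 changed sign, none of those 5 past the threshold. With total count scaling, the log2 fold change of ACACA was -0.044 and that of ACSL3 -0.062. When 1 library was left out, ACACA ran from -0.0095 to 0.087, ACSL3 from -0.045 to 0.087 and FASN from -0.198 to 0.0015, with the signs turned without the reporter-positive library numbered 2 for ACACA and ACSL3 and without the reporter-negative library numbered 1 for FASN. Enzymes called numbered 2 as reported, 4 with total count scaling and 2 to 4 when 1 library was left out. With overlapping genes subtracted they numbered 3, 5 with total count scaling and 2 to 5 when 1 library was left out. When 1 library was left out, calls over all genes ran from 4358 to 9161, against 6942 as reported. The same ranges were 3 to 7 for other elongation and desaturation genes, 5 to 12 for regulators, 1 to 3 for uptake and binding genes and 2 to 10 for oxidation genes. Other synthesis genes ran from 2 to 4, synthetase genes from 4 to 5, glycerolipid genes from 5 to 10 and lipolysis genes from 2 to 4. Total count scaling shifted the median over all genes by -0.08 (log2). The causes of these shifts were not tested. With the library number as a replicate block, 2 enzymes were called, as without it, and 8226 genes in all. Deviations of same-numbered libraries from their line's mean correlated at 0.05 over 21695 genes, so the numbers were not taken to pair the libraries. With 2 libraries per line, changes of the size of the intervals given could go undetected.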
